A study of Mus musculus with 6 samples.

Results

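The genes described here are 8 CC chemokines, Ccl2, Ccl3, Ccl4, Ccl5, Ccl6, Ccl7, Ccl9 and Ccl12, and the chemokine receptor Ccr1. They are the rows of the authors' deposited gene table that carry these symbols, 9 of 19386 genes listed, and all 9 are among the 12082 genes with an adjusted p in that table. They were chosen by the values compared below, the room air mean, the cigarette smoke mean and the mean over 24 libraries. The differences in expression are therefore described. Adjusted p-values were recomputed with a trend in GC content and transcript length removed, but from the same fold changes, so they are no separate test. RNA was sequenced from 6 libraries of macrophages grown from the marrow of C57BL/6 mice of wild-type genotype, 3 from animals that had been exposed to cigarette smoke and 3 from animals kept in room air. The cells came from erythrocyte-depleted marrow, were driven to macrophages by medium conditioned by L929 cells, and were harvested on day 11. Both groups share strain, genotype and culture. The dose and length of the smoke exposure and the age of the mice are not given in the sources used here, nor is it said that the 3 libraries of a group are 3 mice, so the p-values for splicing measure the spread between these libraries, which may be technical. Those for expression come from the authors' fit to 24 libraries or, where the trend was removed, were recomputed from its fold changes and standard errors.

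Expression was given as the authors' means of size-factor-normalized counts, 1 value per group with no value per library, so no spread between libraries can be shown for a level. Depth is unknown. The libraries differed in the number of splicing events without a value, of 10376 in all. It was 398, 7 and 1 for replicates 1, 2 and 3 of room air but 4169, 189 and 50 for those of cigarette smoke. The labelled cell type was seen in its markers: all 10 macrophage markers were listed in the authors' deposited table, their means summed to 56292 normalized counts with room air and 56820 with smoke, and none was past an adjusted p of 0.05 there. Lyz2 alone gave 23168 and 24772 of these sums, and single markers differed more. Mrc1 went from 3601 to 2196 normalized counts and Fcgr1 from 537 to 762, while Marco was near 0 (1.26 and 3.20). Of 10 neutrophil markers 4 were listed, summing to 0.322 and 0.508 normalized counts, while B cell markers, 3 of 5 listed, summed to 6.31 and 4.14 and T and NK cell markers, 1 of 8 listed, to 3.04 and 2.15. Of 5 mast cell and basophil markers, Kit was the gene listed, at 54.5 and 47.9 normalized counts.

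Chemokines are small secreted proteins that direct the migration of leukocytes. In the CC family the first pair of conserved cysteines is adjacent in the protein, and the ligands signal through G protein-coupled receptors named Ccr. Ccl2, Ccl7 and Ccl12 are ligands of Ccr2, the receptor by which inflammatory monocytes leave the marrow and enter tissue, whereas Ccl3, Ccl5, Ccl6, Ccl7 and Ccl9 act on Ccr1. Macrophages are a main source of these ligands in inflamed tissue, and many of the genes are induced through NF-κB and carry AU-rich elements in the 3′ UTR that shorten the life of the mRNA.

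The adjacent cysteines that give the family its name, and the likeness of the ligands around them, are shown by the coding sequence of each ligand (GENCODE M21, 60 bases from 5′ to 3′, codons of both cysteines in capitals). These stretches matter for the measurements because reads of near-identical copies could be split between genes.
Ccl2: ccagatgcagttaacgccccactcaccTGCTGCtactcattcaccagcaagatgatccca
Ccl7: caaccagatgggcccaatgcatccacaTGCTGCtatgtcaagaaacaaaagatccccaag
Ccl12: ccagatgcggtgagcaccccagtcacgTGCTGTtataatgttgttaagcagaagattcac
Ccl3: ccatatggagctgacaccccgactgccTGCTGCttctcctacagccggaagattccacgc
Ccl4: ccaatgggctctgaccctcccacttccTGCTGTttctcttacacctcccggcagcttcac
Ccl5: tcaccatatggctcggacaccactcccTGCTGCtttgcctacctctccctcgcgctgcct
Ccl6: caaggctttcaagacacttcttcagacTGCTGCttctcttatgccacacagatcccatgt
Ccl9: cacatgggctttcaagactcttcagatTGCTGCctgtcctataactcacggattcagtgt
The cysteine pair stands at codons 34 and 35 of Ccl2, Ccl3 and Ccl4, at codons 33 and 34 of Ccl5, Ccl7 and Ccl12, and later in Ccl6 (50 and 51) and Ccl9 (57 and 58), the genes with 4 exons rather than 3. Between pairs of ligands, identity of the aligned coding sequences ran from 60.2% (Ccl5 and Ccl7) to 72.4% (Ccl2 and Ccl7). The longest stretch that any pair of transcripts had in common was 25 bases, between Ccl6 and Ccl9, followed by 23 between Ccl2 and Ccl7, so these ligands are not near-identical copies.

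All 9 genes had higher means after cigarette smoke. The log2 fold change of smoke over room air (log2FC) in the authors' deposited table ran from 0.27 for Ccl4 to 1.94 for Ccl6, with a median of 1.57 against -0.0029 over all genes tested. Past the threshold of an adjusted p under 0.05, 5 of the 9 were called there, all of them higher: Ccl2, Ccl7, Ccl12, Ccl9 and Ccr1. Over all 12082 tested genes the same threshold called 7.69%, and 4.15% as higher after smoke. Because this contrast chose the genes, the count is a description of them. Summed over the 9 genes and not scaled by length, the means came to 4583 normalized counts with room air and 7676 with smoke. Ccl9 gave 67.8% of the ligand sum in room air and 52.1% in smoke. Ccl6, which was not called, went from 514 to 1970 normalized counts, so the sum mostly follows these genes. Since whole cultures were sequenced, more RNA per cell and more cells of a type cannot be told apart.

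**Figure D1:**
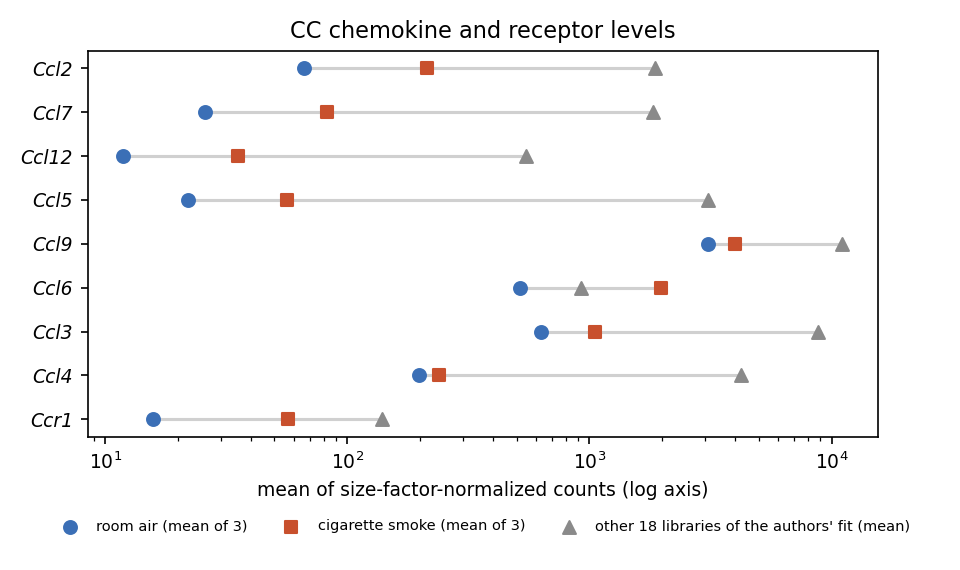
Authors' mean of size-factor-normalized counts (log axis) of each gene in room air (circles), in cigarette smoke (squares) and in the other 18 libraries of the authors' fit (triangles); each point is a mean with no error available. The smoke mean lies to the right of the room air mean for all 9 genes, and the mean of the other libraries lies further to the right for all but Ccl6.

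The ligands of Ccr2 had nearly equal fold changes. Ccl2, the monocyte chemoattractant (ENSMUSG00000035385.5, GRCm38 chr11:82035571-82037453, plus strand), had a mean of 66.2 normalized counts with room air and 213.0 with smoke in the authors' deposited table. Its log2FC there was 1.68 (SE 0.36), with an adjusted p of 0.000562. Ccl7, a monocyte chemoattractant that also binds Ccr1 and Ccr3 (ENSMUSG00000035373.2, chr11:82045712-82047525, plus strand), went from a mean of 25.9 to 82.7 normalized counts per the authors' deposited table, a log2FC of 1.64 (SE 0.33) and the lowest adjusted p of the 9 genes, 0.000189. Ccl12, which in the mouse also attracts monocytes (ENSMUSG00000035352.3, chr11:82101845-82103400, plus strand), was the lowest of the 8 ligands in room air at 11.9 normalized counts and reached 35.3 after smoke per the authors' deposited table, with a log2FC of 1.57 (SE 0.34) and an adjusted p of 0.000618. The ratios of the smoke to the room air mean were thus 3.22, 3.19 and 2.97 for Ccl2, Ccl7 and Ccl12. The 3 genes lie in the same orientation within 67.8 kb. Ccl8, another CC ligand 11.8 kb beyond Ccl12, went from a mean of 1.35 to 14.5 normalized counts per the authors' deposited table, where its log2FC of 3.42 (SE 1.27) had an adjusted p of 0.0704.

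Reads of Ccl2 and Ccl7 may not be fully separable. The authors' merged annotation, an assembly from reads, puts Ccl2 and Ccl7 in 1 locus and holds 1 transcript that joins them. How reads were counted per gene is not given in the sources used here.

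Ccl3, Ccl4 and Ccl5 had smaller fold changes than these, and none was past the threshold. Ccl3, also known as macrophage inflammatory protein 1-alpha (ENSMUSG00000000982.5, chr11:83647844-83649355, minus strand), had means of 630 and 1050 normalized counts in room air and smoke per the authors' deposited table, with a log2FC of 0.74 (SE 0.41) and an adjusted p of 0.273. Its neighbour Ccl4, macrophage inflammatory protein 1-beta (ENSMUSG00000018930.3, chr11:83662584-83664683, plus strand), had means of 197.9 and 238.7 normalized counts and the smallest log2FC of the 9 genes in the authors' deposited table, 0.27 (SE 0.43, adjusted p 0.779). For Ccl4 the fold change was smaller than its standard error, and with the trend of the fold changes in GC content and transcript length removed its log2FC was 0.06. Ccl5, which attracts T cells and monocytes (ENSMUSG00000035042.2, chr11:83525778-83530518, minus strand), was low, at 22.1 and 56.4 normalized counts, and its log2FC of 1.33 (SE 0.58) had an adjusted p of 0.139 per the authors' deposited table. A p above the threshold does not show that these 3 genes were the same in both groups.

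Ccl6 and Ccl9, ligands of Ccr1 that macrophages make, had the largest and the smallest standard errors of the 9 genes. Ccl9 (ENSMUSG00000019122.8, chr11:83572919-83578636, minus strand) had the highest counts of the 9, with 3099 normalized counts with room air and 3972 with smoke in the authors' deposited table. It combined a small log2FC, 0.36, with a standard error of 0.10, and had an adjusted p of 0.0133 there. Ccl6 (ENSMUSG00000018927.3, chr11:83587882-83593087, minus strand) went from 514 to 1970 normalized counts, which gave the largest log2FC of the 9 in the authors' deposited table, 1.94, but with a standard error of 0.68 and an adjusted p of 0.0531. It lay just outside the threshold, where Ccl9 was the last gene inside it. The standard error of Ccl6 was larger than that of 99.6% of the 1457 tested genes with a mean within a factor of 2 of its own, whose median standard error was 0.144, whereas for Ccl9 13.7% of such genes had a smaller one. Because the authors fitted 24 libraries at once, these standard errors also hold the spread of the 18 libraries not analysed here.

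Ccr1, the receptor that Ccl3, Ccl5, Ccl6, Ccl7 and Ccl9 share (ENSMUSG00000025804.5, chr9:123962124-123968692, minus strand), had means of 15.8 normalized counts with room air and 56.8 with smoke in the authors' deposited table. The log2FC of 1.90 (SE 0.53) had an adjusted p of 0.0103 there. When the 9 genes were ordered by log2FC, as Ccl6, Ccr1, Ccl2, Ccl7, Ccl12, Ccl5, Ccl3, Ccl9 and Ccl4, the difference between neighbours was smaller than their combined standard error in all 8 steps. That is a description of adjacent steps, with the genes taken as independent although they share libraries, and it says nothing of genes further apart in the order.

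**Figure D2:**
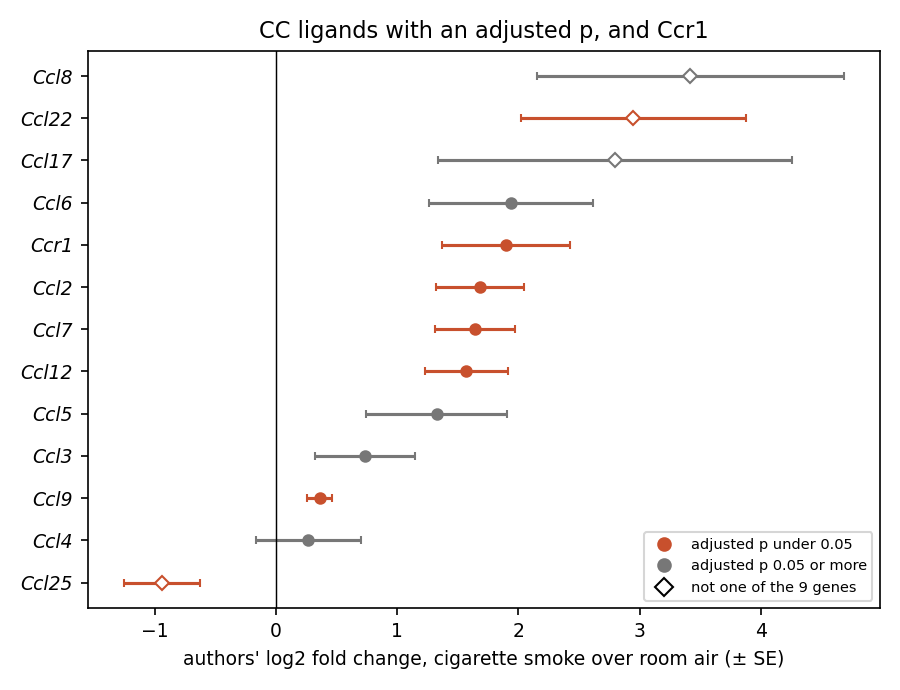
Authors' log2FC of cigarette smoke over room air (horizontal axis, bars ± 1 SE) for Ccr1 and each CC ligand with an adjusted p in the authors' table; filled circles are the 9 genes, open diamonds other ligands, red an adjusted p under 0.05. Ccl2, Ccl7, Ccl12 and Ccr1 lie between 1.57 and 1.90, Ccl9 at 0.36 has the shortest bar of the 9, and Ccl25 lies at -0.94.

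Levels can be compared between genes only per length. Per kilobase of the longest transcript, Ccl9 stood highest in room air at 1031 normalized counts, followed by Ccl3 at 823, Ccl6 at 357 and Ccl4 at 299.8. Ccl2 at 81.4, Ccl5 at 41.5, Ccl7 at 32.3 and Ccl12 at 22.1 normalized counts per kilobase were lower, and Ccr1 had 5.58. After smoke Ccl3 (1371), Ccl6 (1368) and Ccl9 (1321 normalized counts per kilobase) stood almost level, while the order of the remaining genes stayed Ccl4 (361.7), Ccl2 (262), Ccl5 (106), Ccl7 (103.2), Ccl12 (65.7) and Ccr1 (20.04). With 1 mean per group, whether neighbours in this order differ beyond the spread of libraries cannot be given.

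All 8 ligands lie on chromosome 11 in 2 clusters 1422 kb apart: Ccl2, Ccl7 and Ccl12 in the first, and Ccl5, Ccl9, Ccl6, Ccl3 and Ccl4, in this order, within 138.9 kb in the second. In the first cluster the log2FC values were 1.57 to 1.68, but Ccl8, which lies there too, had 3.42, as given above. In the second cluster the log2FC values in the authors' deposited table ran from 0.27 for Ccl4 to 1.94 for Ccl6, and Ccl9 and Ccl6, 9.25 kb apart on the same strand, had 0.36 and 1.94. On chromosome 9, Ccr1 lies near the receptor genes Ccr3 and Ccr2, whose log2FC values in the authors' deposited table were -0.16 (SE 0.54) and -0.71 (SE 0.35), neither past the threshold.

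The other 18 libraries of the authors' fit, which are not analysed here and whose conditions are not named in the table, held far more chemokine mRNA. Their mean, computed from the deposited 24-library mean and the 2 group means, was above both groups for 8 of the 9 genes. It was 13.4 times the mean of the 2 groups for Ccl2, 33.8 times for Ccl7 and 23.2 times for Ccl12. For Ccl3, Ccl4 and Ccl5 the ratio was 10.5, 19.3 and 78.9. Ccl9 and Ccr1 had smaller ratios of 3.13 and 3.84, and Ccl6 alone was lower in the other libraries, at 0.742 times the mean of the 2 groups. A ratio of at least 2 was found for 8 of the 9 genes and for 19.0% of all tested genes. Against the smoke means alone, the mean of the other libraries was 8.77 times as high for Ccl2, 22.2 times for Ccl7 and 15.5 times for Ccl12. Since the 24-library mean was among the values that chose the genes, these ratios are descriptive.

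**Figure D3:**
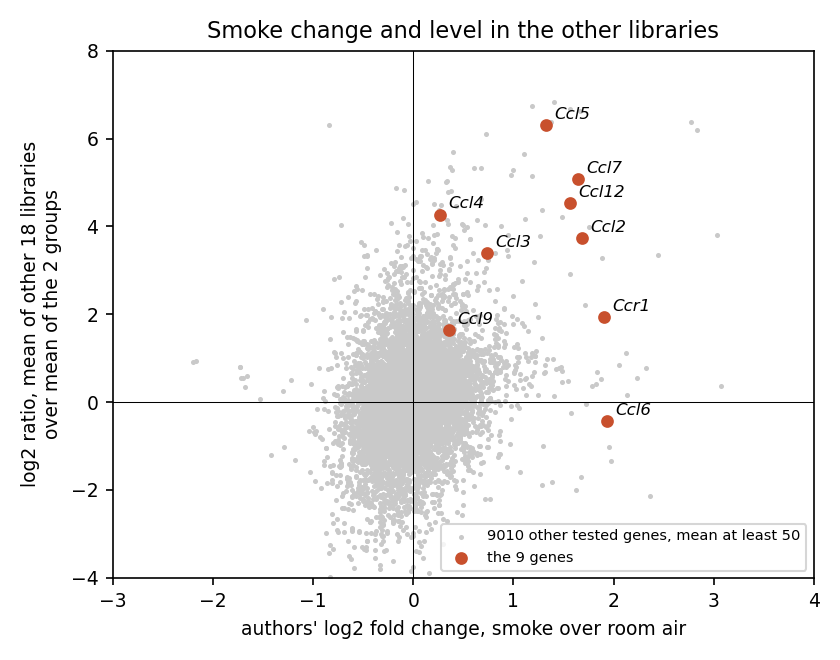
Each point is a gene with an adjusted p and a mean of at least 50 normalized counts over the 2 groups (grey, 9010 genes) or 1 of the 9 chemokine and receptor genes (red); the horizontal axis is the authors' log2FC of smoke over room air and the vertical axis the log2 ratio of the mean of the other 18 libraries to the mean of the 2 groups, with 7 grey genes outside the axes. Ccl2, Ccl7, Ccl12 and Ccl5 lie far up and to the right, Ccl4 and Ccl3 far up with smaller changes, Ccl9 near the main cloud, and Ccl6 to the right but below 0.

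In these 2 measures together, the log2FC and the log2 ratio of the 24-library mean to the mean of the 2 groups, 5 genes lay closest to Ccl2 among 9015 others with an adjusted p and a mean of at least 50 normalized counts. They were Odc1, the rate-limiting enzyme of polyamine synthesis, at a Euclidean distance of 0.25, Sdc1, which encodes the proteoglycan syndecan-1, at 0.42, Bcl2a1b, a relative of Bcl2 whose reads can be shared with near-identical copies, at 0.50, Plaur, the urokinase receptor, at 0.50, and Cd274, which encodes PD-L1, at 0.70. Odc1 had means of 132.3 and 444.5 normalized counts in the authors' deposited table with a log2FC of 1.76 (SE 0.46). Plaur had 75.0 and 272.4 normalized counts there, with 1.88 (SE 0.28). Of the other 8 genes 5 had a mean of at least 50 and a rank in the same order: Ccl3 was the 15th nearest to Ccl2, Ccl7 the 36th, Ccl4 the 68th, Ccl9 the 398th and Ccl6 the 4350th. Likeness here rests on 2 values per gene and not on a profile over libraries.

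Beyond the 9 genes, 1 CC ligand was called higher and 1 lower. The list of 21 mouse CC ligands had 15 genes in the authors' deposited table and 12 with an adjusted p, of which 5 were called higher and 1 lower. The 12 include the 8 ligands chosen by these values, so the count of the list is no separate observation. Of the other 4, Ccl22 was called higher, Ccl25 lower, and Ccl8 and Ccl17 were not called. Ccl22, a ligand of Ccr4, was called higher from a level near 0, 0.496 against 5.70 normalized counts, with a log2FC of 2.95 (SE 0.93) and adjusted p 0.0274 per the authors' deposited table. Ccl25, the ligand of Ccr9, was the ligand called lower, from 38.3 to 19.2 normalized counts, with a log2FC of -0.94 (SE 0.32) and adjusted p 0.0432 per the authors' deposited table. With the trend in GC content and transcript length removed, the recomputed adjusted p was 0.0934 for Ccl22 and 0.0598 for Ccl25. For Ccl2, Ccl7, Ccl9, Ccl12 and Ccr1 it ran from 0.000463 to 0.0112. These values come from the contrast that chose the 9 genes, so for those genes they are a description and no separate support.

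Among the CC receptors Ccr1 was called higher and none was called lower. Of 16 CC and atypical receptors 7 were listed in the authors' deposited table and 5 had an adjusted p, with 1 called higher and 0 lower. Ccr2, the receptor for Ccl2, Ccl7 and Ccl12, had means of 163.6 normalized counts with room air and 98.0 with smoke per the authors' deposited table, with a log2FC of -0.71 (SE 0.35) and an adjusted p of 0.195. Ccrl2, an atypical receptor that does not signal through G proteins, had 75.7 and 99.7 normalized counts (adjusted p 0.678) in the authors' deposited table.

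A few genes downstream of the receptors and a few that control chemokine mRNA were called higher, against 4.15% of all tested genes. In a list of 20 signalling genes 3 were called higher and 0 lower in the authors' deposited table, with a median log2FC of 0.02: Gnai2, the inhibitory G protein subunit through which chemokine receptors signal (0.30, SE 0.10, adjusted p 0.0412), Gnb2, a G protein beta subunit (0.44, SE 0.12, adjusted p 0.0118), and the GTPase gene Rac2 (0.36, SE 0.12, adjusted p 0.0439). Dock2, which activates Rac in migrating leukocytes, and Rac1 had the next highest counts after Gnai2 over both groups, not scaled by length, with log2FC values of -0.24 (SE 0.09, adjusted p 0.0634) and 0.03 (SE 0.07, adjusted p 0.888), both from the authors' deposited table. In a list of 17 genes of chemokine induction and mRNA decay 3 were called higher and 0 lower there, with a median of 0.20. They were Nfkbia, the NF-κB inhibitor that is itself an NF-κB target (0.56, SE 0.15, adjusted p 0.00967), Cebpb, a transcription factor of inflammatory genes (1.21, SE 0.34, adjusted p 0.0117), and Spi1, which encodes the myeloid factor PU.1 (0.41, SE 0.11, adjusted p 0.00813), all in the authors' deposited table. Zfp36l2, which encodes a protein that binds AU-rich elements, was among the 3 genes with the highest counts of this list and had a log2FC of -0.22 (SE 0.26, adjusted p 0.678) by the authors' deposited table. With the trend in GC content and length removed, none of the 6 called genes of these lists stayed past the threshold, with adjusted p-values from 0.296 for Nfkbia to 0.906 for Gnai2.

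Markers of other cells differed between the group means at low levels. Dendritic markers, 4 of 6 listed, summed to 32.9 normalized counts with room air and 108.8 with smoke in the authors' deposited table. Nearly all of it was Itgax, which macrophages can also express (31.7 and 107.8, adjusted p 0.0571), and Zbtb46, Xcr1 and Siglech were at 1.02 or less in both groups. Inflammatory monocyte markers, 4 of 5 listed, summed to 12.9 and 32.2 normalized counts, but F13a1 was higher after smoke (6.92 and 21.5) and Plac8 lower (1.45 and 0.098). Stromal markers, 6 of 6 listed, summed to 47.9 in room air and 10.8 in smoke, lower where the chemokines were higher. None of these markers was called in the authors' deposited table, and their part in the chemokine values was not tested.

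AU-rich elements were searched in the 3′ UTRs as the pentamer ATTTA. Of the 9 genes 8 held at least 1 copy, all but Ccl5, against 70.6% of 10873 tested coding genes, and the median was 4.24 copies per kb against 1.34. Ccl12 had the densest 3′ UTR at 29.9 copies per kb and Ccl3 followed at 12.2, while Ccr1 had 0.769.

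Promoters of 5 of the 9 genes (Ccl3, Ccl6, Ccl9, Ccl12 and Ccr1) were matched in RefSeq on GRCm38.p6, each from 250 bases before to 50 after the start. On either strand, the NF-κB consensus (κB) was found in 2 of the 5, against 8.18% of 27025 promoters of the same length, and the AP-1 motif TGANTCA in 1 of the 5, against 7.93%. An interferon response element core and the PU.1 core GAGGAAG were in none of the 5, against 3.49% and 13.5% of all promoters. The 120 bases before the start are printed for the promoters with a match, on the minus strand and with the matches in capitals.
Ccl9, chr11:83578637-83578756: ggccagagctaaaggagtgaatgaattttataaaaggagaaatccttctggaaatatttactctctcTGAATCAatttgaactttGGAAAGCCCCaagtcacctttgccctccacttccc
Ccr1, chr9:123968693-123968812: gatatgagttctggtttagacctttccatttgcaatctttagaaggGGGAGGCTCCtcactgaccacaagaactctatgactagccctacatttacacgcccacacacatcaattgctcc
In Ccl9 the AP-1 match lies at -53 to -47 and the κB match at -35 to -26 from the start, and in Ccr1 the κB match lies at -74 to -65. The 2 promoters with a κB match thus belong to a gene with a small and a gene with a large fold change. A match is a description of letters and not a bound site.

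Splicing was measured in each library and was not used to choose the genes. JuncBASE gives the percent of reads at an event that include the intron or the alternative segment, and 10 of its events overlapped the 9 genes: 8 on the strand of Ccl2, Ccl3, Ccl4 or Ccl7, and 2 on the strand opposite to Ccl3. Of the 8, 7 were retained introns. All 7 had a lower mean after smoke, as did 92.5% of the 1992 retained introns of any gene with a value in every library. The 4 chemokine introns with a value in every library, both introns of Ccl3 and both of Ccl4, had all smoke values below all room air values. That pattern held in 38.7% of the same 1992 introns, so it was common outside the chemokine genes. With limma on log2 odds of inclusion, 0 of the 10 events passed a Benjamini-Hochberg adjusted p of 0.05, as did 0% of all 10376 events, and 3 of the 10 had an unadjusted p under 0.05, against 10.8% of all events.

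The exon junctions made when these introns are removed all lie within the coding sequence. They are shown for the introns with 6 values, 15 bases from each exon with the 3 on either side of the junction in capitals.
Ccl3 intron 1: tcttctcagcgcCATATGgagctgacaccc
Ccl3 intron 2: ccagccaggtgtCATTTTcctgactaagag
Ccl4 intron 1: ggttctcagcacCAATGGgctctgaccctc
Ccl4 intron 2: caagccagctgtGGTATTcctgaccaaaag
In Ccl3 the first intron (chr11:83648681-83649201) was retained at 16.48%, 16.33% and 13.32% in room air replicates 1, 2 and 3 and at 8%, 6.32% and 7.35% in cigarette smoke replicates 1, 2 and 3. The smoke values did not overlap those of room air, with means of 15.4% ± 1.78 for room air and 7.22% ± 0.847 for smoke (SD, n = 3). Limma gave an unadjusted p of 0.0373 and an adjusted p of 0.417 for this intron. The second intron of Ccl3 (chr11:83648344-83648568) was retained at 15.86%, 18.86% and 15.12% in room air and at 4%, 7.52% and 8.40% in smoke, a difference of -9.97 percentage points (limma, p 0.0245, adjusted p 0.372). An unannotated donor site inside intron 1, whose junction spans 83648681 to 83649038 instead of reaching 83649201, was used in 10.06%, 7.72% and 7.00% of reads in room air and in 2.82%, 2.40% and 3.31% in smoke (limma, p 0.0201, adjusted p 0.353). It overlaps intron 1 and can share its reads, so it is no separate observation.

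Retention in Ccl4 had a lower mean than in Ccl3 in both groups, and a lower mean after smoke that did not pass the threshold. Its first intron (chr11:83662739-83663458) was retained at 10%, 12% and 11.29% in room air and at 2.5%, 7.5% and 4.96% in smoke, with group means of 11.1% ± 1.01 and 4.99% ± 2.50 (SD, n = 3; limma, adjusted p 0.476). The second (chr11:83663574-83664293) was at 9.21%, 11.45% and 12.93% in room air and at 1.89%, 4.92% and 9.09% in smoke (limma, adjusted p 0.504). Here the highest smoke value lay just under the lowest room air value, so the groups were barely apart.

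In Ccl2 and Ccl7, room air replicate 1 had no value, which leaves 2 room air libraries. Retention of Ccl2 intron 1 (chr11:82035738-82036482) was 15.79% and 29.73% in those 2 libraries and 5.26%, 9.38% and 14.86% in smoke, which lay below both (limma, adjusted p 0.524). Intron 2 of Ccl2 (chr11:82036601-82036925) was at 11.76% and 18.87% against 6.67%, 15.15% and 11.82%, and here the groups overlapped (limma, adjusted p 0.708). The second intron of Ccl7 (chr11:82046630-82046984) was at 5% and 5.88% against 0%, 6.25% and 4.44%, again with overlap (limma, adjusted p 0.666). Ccl5, Ccl6, Ccl9, Ccl12 and Ccr1 had no event in this table.

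Differences of this size were found in many other introns. The median difference of the 7 chemokine introns, of which only 4 had 6 values, was -6.11 percentage points, against -3.84 over the 1992 introns with 6 values. Among the 1060 introns whose room air mean was between 5% and 20%, the median difference was -4.91 percentage points and the median ratio of smoke to room air was 0.384. The chemokine introns had ratios from 0.400 for Ccl3 intron 2 to 0.732 for Ccl2 intron 2.

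**Figure D4:**
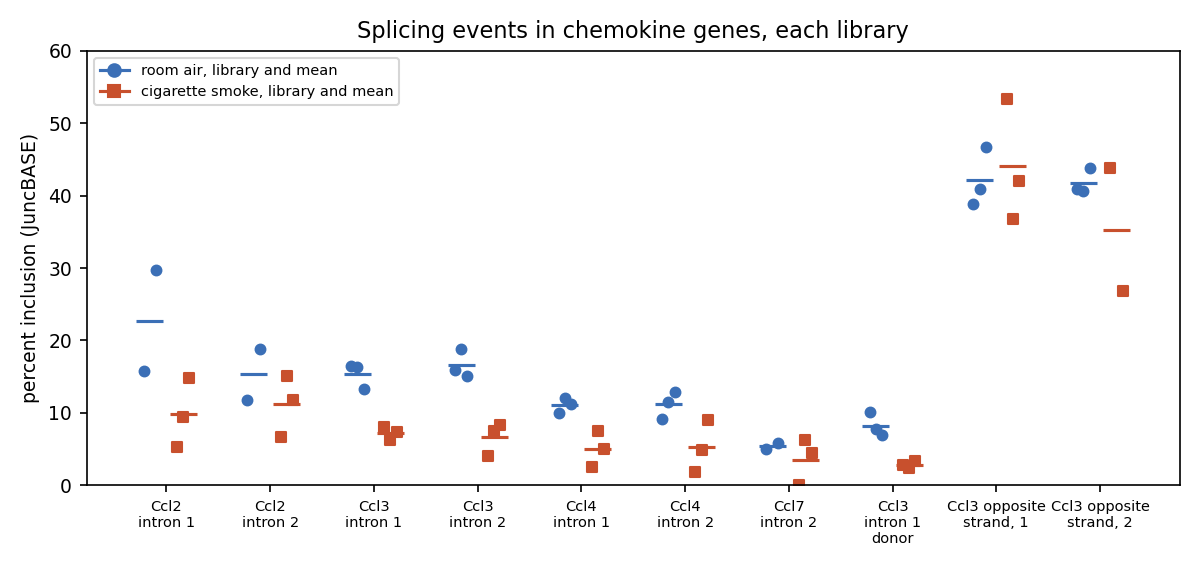
Percent inclusion by JuncBASE (vertical axis) of the 10 events overlapping the 9 genes, with 1 point per library and a line at the group mean; circles are room air and squares cigarette smoke, and a missing point is a library without a value. In the introns and the extra donor of Ccl3 and in both introns of Ccl4 all smoke points lie below all room air points, and the opposite-strand events overlap.

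On the strand opposite to Ccl3, JuncBASE listed 2 unannotated introns. The first (chr11:83648712-83648894) was retained at 38.78%, 40.91% and 46.67% in room air and at 53.33%, 36.84% and 42.03% in smoke, and the second (chr11:83648990-83649120) at 40.91%, 40.58% and 43.75% in room air and at 43.75% and 26.79% in cigarette smoke replicates 2 and 3. The groups overlapped in both (limma, adjusted p 0.927 and 0.746). The authors' merged annotation holds 5 transcripts on that strand over Ccl3, of which 3 reach into Ccl4. Whether the gene counts used strand is not given in the sources used here, so reads of Ccl3 and of these transcripts cannot be told apart in its level.

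The authors also deposited their own tests of splicing. In the authors' deposited JuncBASE table, Ccl3 intron 1 had a p of 0.0133 and the extra donor of Ccl3 a p of 0.0212, with corrected p-values of 1 and 0.499. The authors' deposited rMATS table held 9 retained introns of Ccl2, Ccl4, Ccl5, Ccl6 and Ccl7, and 1 of them, intron 1 of Ccl4, had a false discovery rate under 0.05, against 14.5% of 3887 introns. For that intron the authors' deposited table gave a difference of 6.1 percentage points between its sample sets 1 and 2 and a false discovery rate of 3.47e-06. Intron 1 of Ccl2 differed by 9.9 percentage points in that table, with a false discovery rate of 0.0575. Introns of Ccl5, Ccl6 and Ccl7 differed by 1 point or less there. The table does not name its sample sets, so no direction is given.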

How the data were processed

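The labels describe directional libraries from total RNA. The submitters' processing notes name STAR, DESeq2, SAMtools 1.9, bedtools 2.27.1 and the build mm10, with no roles. The counting program and filters are not given in the sources used here. The signal columns of the authors' gene table hold, per the file headers, group means and a 24-library mean of size-factor-normalized counts; 6 of the libraries were used here. The authors' log2 fold change, its standard error, the Wald score (their ratio), the p-value and the adjusted p come from a fit to those 24 libraries and were copied. JuncBASE percent inclusion per library was deposited by the authors, with medians, their difference and p-values. The rMATS table has p-values and false discovery rates and, as another deposited quantity, the difference between unnamed sample sets. Its 6 columns of per-sample values were not used.

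With no expression value per library, the authors' comparison was described, with calls at an adjusted p under 0.05. Inclusion p (percent) was transformed to log2((p + 1)/(100 - p + 1)) and all 10376 events were fitted with limma 3.58.1 (R 4.3.3), group as the term and Benjamini-Hochberg adjustment, a step tested on simulated data. The dependence of the fold changes on GC content and log2 length was removed with natural splines of 4 degrees of freedom (statsmodels 0.14.6, patsy 1.0.2). New p-values were taken from the normal distribution, for the remaining fold change over the authors' standard error, with Benjamini-Hochberg adjustment. Positions, lengths and coding sequences are those of GENCODE M21 on GRCm38.

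The genes, lists, alternatives and tests were chosen with earlier results of these data known. Named are all 9 genes, list genes past the authors' threshold or among the 3 highest of a list, the 5 genes nearest to Ccl2 and every splicing event over the 9 genes. A few list genes that this rule names are not reported here. Replicate numbers were not taken as pairs in the main fit. Same-numbered libraries had deviations from their group means that correlated at -0.008, -0.049 and -0.083 over 5933 events. Such values show no sign of pairing but cannot exclude that libraries were handled in pairs.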

Additional observations from a re-analysis of the deposited data

How the results depend on the processing

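Of the 9 chemokine genes, 5 were past an adjusted p of 0.05 in the authors' table, 6 at 0.1, 3 at 0.01, 3 when a mean of at least 50 normalized counts over the 2 groups was asked for, which leaves 6 of the genes, and 5 with the trend in GC content and length removed. All these counts rest on the contrast that chose the genes and only describe them. Of the 4 lists together, 13 genes were past the threshold, 5 at 0.01 and 6 with the trend removed. In the splicing events limma called 0 of 10376 at an adjusted p under 0.05 (1125 at an unadjusted p under 0.05), 0 with the pseudocount at 0.5 or 5 points, 0 with the replicate block, and 23 when only the 5933 events with 6 values were tested, none of them in the 9 genes. Leaving out 1 library gave 0 to 1131 events in all and 0 to 1 in the 9 genes. Both upper values came without cigarette smoke replicate 3. There 94.8% of the 1131 events had a group wholly at 0% or 100%, with missing values passed over. Such a group could be 1 library, since cigarette smoke replicate 1 had no value for 4169 events. The event in the 9 genes was the extra donor of Ccl3 (log2 odds -1.43, adjusted p 0.0461, over its alternatives 0.0461 to 0.609). The sign turned in the opposite-strand introns of Ccl3: with 1 library left out the first ran from -0.16 (without cigarette smoke replicate 1) to 0.32 log2 odds, and the second from -0.95 to 0.12 (without cigarette smoke replicate 3). The cause was not tested. Of the rMATS introns, 1 chemokine intron was past a false discovery rate of 0.05, 2 at 0.1 and 1 at 0.01. Of the other values for single genes and events, 102 with an adjusted p kept their direction and their side of the threshold, and 18 ratios of group means with no test kept their direction. Depth could not be set against any value, since no read counts were used.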

Other observations

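A few genes of the CC network were near 0 in room air and had no call. They were picked after their values were seen, and they differed in both directions. Ccl17, which shares the receptor Ccr4 with Ccl22, had means of 0.122 normalized counts with room air and 0.991 with smoke per the authors' deposited table, with a log2FC of 2.79 (SE 1.46) and an adjusted p of 0.233. Rgs16, which shortens signalling by inhibitory G proteins, had 0.374 and 2.69 normalized counts there, with a log2FC of 2.84 (SE 1.02) and an adjusted p of 0.0608. Ccl24 had 0.658 and 0.293 normalized counts and Ccr1l1 1.67 and 0.704 there, lower after smoke and with no adjusted p. At such levels the fold change rests on few reads.

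Elavl1, which encodes HuR, a protein that binds AU-rich elements and stabilises mRNA, was the only gene of the 4 lists that was past the threshold with the GC and length trend removed but not before. Its means were 319.3 normalized counts with room air and 376.3 with smoke per the authors' deposited table, with a log2FC of 0.24 (SE 0.12). The adjusted p was 0.198 in the authors' deposited table and 0.0170 with the trend removed.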
